A study of Homo sapiens with 33 samples.

Results

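Human embryonic stem cells were differentiated under 2 treatments, and the question here was which genes changed differently between day 3 and day 15. The quantity reported is a difference of changes, the LSB3i change (day 15 minus day 3) minus the LSB change over the same days, on the log2 scale. It was computed for every gene detected on all 3 arrays of at least 1 of the 4 groups, which gave 9440 of the 10038 genes tested in the whole series and used 12 of its 33 arrays directly. The established embryonic stem cell line H9 (WA-09), expanded on mouse embryonic fibroblasts, was moved to Matrigel to differentiate, so the groups share 1 line and the comparison does not extend to other lines. The 2 LSB groups, at days 3 and 15, were exposed to LDN-193189, which blocks BMP type I receptors, and SB431542, which blocks the TGF-beta, activin and nodal receptors. The 2 LSB3i groups, at the same days, were exposed to both of these agents and also to CHIR 99021, DAPT and SU5402. CHIR 99021 switches on Wnt signalling by blocking GSK3, DAPT stops Notch cleavage by gamma-secretase, and SU5402 blocks receptors of FGF and VEGF. Both SMAD pathway inhibitors are therefore common to all 4 groups. The sample titles describe LSB as neural and LSB3i as nociceptor differentiation. The labels give neither the doses of these 5 agents nor the day on which one was added or withdrawn.

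Nociceptors are the sensory neurons that detect harmful stimuli, and in the embryo they arise from the neural crest, a migratory population formed at the edge of the neural plate. Blocking SMAD signalling in pluripotent cells favours anterior neural plate, whose cells express forebrain and eye transcription factors such as OTX2, LHX2, SIX6 and PAX6. Wnt activation moves such cells towards posterior and crest fates, and blocking Notch lets progenitors leave the cell cycle and become neurons.

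The mean signal of the 12 arrays lay between 651 and 734 at day 3 and between 427 and 513 at day 15, and was lower at day 15 in both arms. The residual SD was 0.215 in LSB day 3, 0.421 in LSB day 15, 0.364 in LSB3i day 3 and 0.445 in LSB3i day 15. The array lettered A of LSB3i day 3 stood apart from B and C. It differed from the mean of the other 2 by at least 4-fold in 111 genes, against 7 genes for B, 14 for C and 0 for each LSB day 3 array. Its mean correlation with its own group was 0.960, against 0.976 for B and 0.974 for C. With the LSB day 3 arrays it was 0.974, against 0.977 for B and 0.972 for C. Without that array 8522 of the 9440 genes (90.3%) kept their class. Where a gene described below was found to change class, its class or value without that array is given. The same was done for gene groups whose count moved by over 1.5 times. Some further genes of the naming rule, such as SLC2A1, PDGFD and CLDN7, also changed class and are not described. Whether replicate arrays stand for separate cultures is not in the labels, and the p-values therefore reflect array-to-array spread, which may be technical. The pluripotency gene LIN28A was at 14.14 in LSB and 14.21 in LSB3i at day 3 (mean normalized log2 signal), and POU5F1 was detected on all 3 day 3 arrays of both arms, while NANOG was above background on none of them. Of the sensory neuron markers, POU4F1, ISL1, SCN9A, TAC1 and SLC17A6 were detected on all 3 arrays of LSB3i day 15.

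A change or a difference was called when limma's p, adjusted by Benjamini and Hochberg over all genes tested, was under 0.05 together with an absolute log2 value of at least 1, which is 2-fold. Changes and differences printed with ± are log2 values with their SE (3 arrays per group). Each SE and p rests on 1 spread per gene, estimated over all 11 groups of the series. It is therefore not the spread of the compared groups alone, and both arms carry the same SE. The LSB3i change was called for 4147 genes (43.9%), 1939 rising (20.5%) and 2208 falling (23.4%). The LSB change was called for 2208 genes (23.4%), 1034 rising and 1174 falling. Over all 10038 genes tested, 10.6% rose and 12.1% fell in LSB. The difference of changes was called for 2590 genes (27.4%), higher in LSB3i for 1288 (13.6%) and lower for 1302 (13.8%). When only probes detected on at least 17 of the 33 arrays were kept, which left 8431 genes, the split was 830 higher and 1211 lower. The changes had an SD of 1.60 across genes in LSB3i and 1.04 in LSB. The arms share no arrays, and across the 9440 genes, which are not independent replicates, their changes correlated at 0.564, with 6808 genes (72.1%) of the same sign in both. When arrays were scaled to a common median in place of quantile normalization, the median change of all genes moved from -0.10 to -0.84 in LSB3i and from -0.02 to -0.67 in LSB, and the calls split into 1090 rising and 4137 falling in LSB3i and 475 rising and 3011 falling in LSB. The median difference of changes moved only from -0.08 to -0.15. The rise or fall of a gene within an arm is thus relative to the quantile scale, and the median difference depends on it less. The calls of the difference did depend on it, since median scaling gave 1772, of which 1766 were among the 2590.

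**Figure D1:**
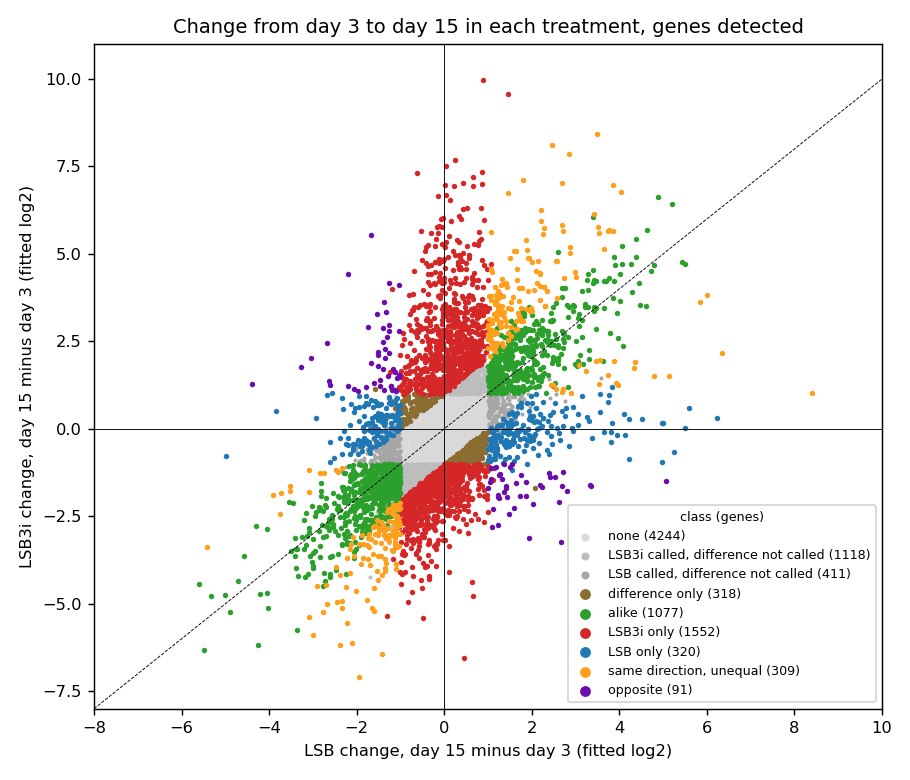
Each of the 9440 points is a gene, with the LSB change on the horizontal and the LSB3i change on the vertical axis (fitted log2, day 15 minus day 3), coloured by class, and the dashed line marks equal change. The vertical band of 1552 LSB3i only genes is denser than the horizontal band of 320 LSB only genes. Fitted values include genes at background in 1 or more groups, for which the text gives bounds.

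The calls sorted the genes into classes. LSB3i only means that the LSB3i change and the difference were called and the LSB change was not, and it held 1552 genes (16.4% of the 9440), 811 rising and 741 falling. With the filter on 17 arrays it held 461 rising and 734 falling genes. LSB only was defined the same way and held 320 genes (3.39%), 184 rising and 136 falling. Both changes were called in the same direction with no called difference in 1077 genes (11.4%), termed alike, of which 464 rose and 613 fell. A further 309 genes (3.27%) moved the same way in both arms to a different extent, and 91 genes (0.964%) moved in opposite directions. In 318 genes only the difference was called. In 1118 genes the LSB3i change and in 411 genes the LSB change was called without a called difference, so that these are assigned to neither arm, and 4244 genes had no call. A missing call does not show that a gene held its level. Among the LSB3i only genes the 95% interval of the LSB change lay inside 2-fold in 816 of 1552, and among the LSB only genes that of the LSB3i change did so in 151 of 320. Among the alike genes the interval of the difference lay inside 2-fold in 155 of 1077, so most of these may still differ between arms by more than that.

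Few genes differed between the treatments at day 3. At day 3, 25 genes (0.265%) differed between the treatments, and at day 15 there were 2841 (30.1%), 1308 higher (13.9%) and 1533 lower (16.2%) in LSB3i. Of the 1288 genes with a higher difference of changes, 9 were called apart at day 3 and 1102 at day 15. Of the 1302 with a lower one, 6 were called at day 3 and 1165 at day 15. The count at day 3 rested on the arrays used. It was 86 without LSB3i array A, and between 10 and 16 when any other day 3 array was left out. The arrays of day 9 take no part in the difference. There, LSB3i lay above LSB for 64.8% of the genes with a higher difference and for 39.5% of those with a lower one, against 51.1% of all 9440. Genes with no called difference leaned the same way, at 64.0% of the rising and 31.8% of the falling alike genes. The lean at day 9 is therefore not particular to genes with a called difference.

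**Figure D2:**
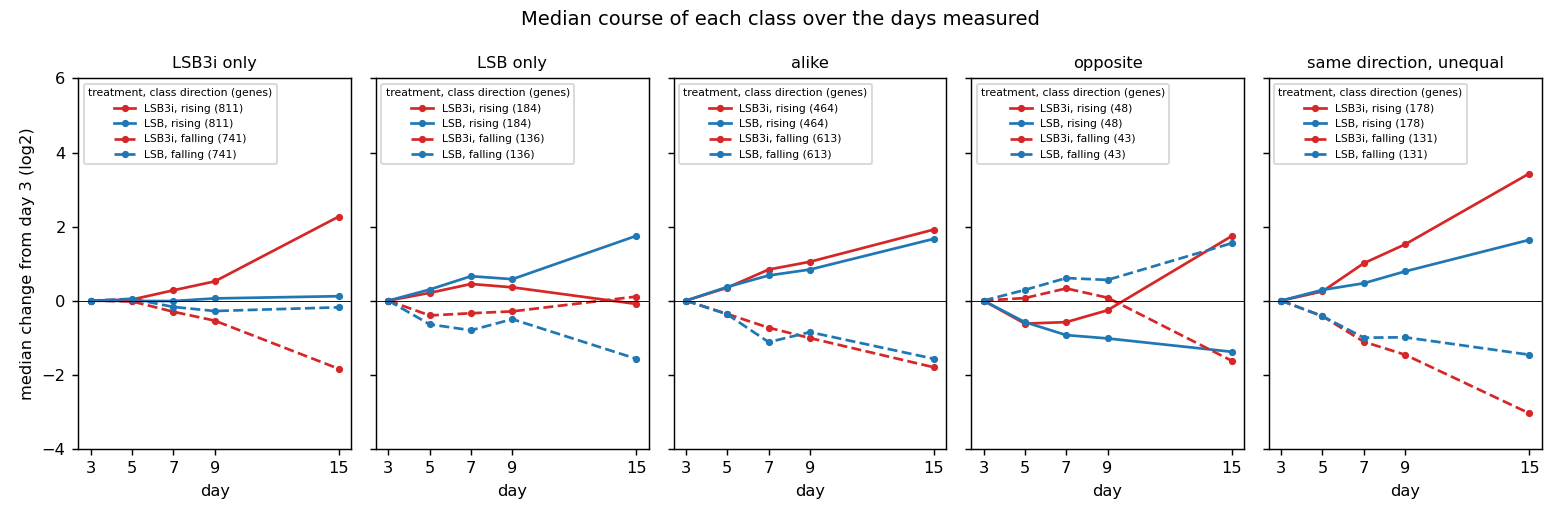
Median change from day 3 (log2, vertical axis) against the day (horizontal axis) for the rising (solid) and falling (dashed) genes of 5 classes, in LSB3i (red) and LSB (blue), with the number of genes in each legend. Days 3 and 15 formed the classes, days 5 to 9 did not. The rising LSB3i only genes reached 0.52 at day 9 and 2.27 at day 15 in LSB3i, while the rising alike genes moved up at each step in both arms and the falling ones turned back in LSB between days 7 (-1.12) and 9 (-0.85).

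The courses over the days differed between classes. The 811 rising LSB3i only genes had a median change in LSB3i of 0.03 at day 5, 0.28 at day 7, 0.52 at day 9 and 2.27 at day 15, so most of their rise came after day 9. The 464 rising alike genes were already at 1.05 in LSB3i and 0.84 in LSB by day 9. The 48 opposite genes that ended higher in LSB3i were below their day 3 level in both arms at day 5, at -0.62 in LSB3i and -0.58 in LSB, and the arms parted later. LSB day 7, whose arrays had a residual SD of 0.815, is the least certain point of these courses. The later LSB3i arrays lettered A correlated better with the preceding LSB3i day than with their own group. The mean correlations were 0.978 against 0.958 at day 5, 0.98 against 0.959 at day 7 and 0.979 against 0.97 at day 9. All LSB3i means and medians given for these days include those arrays.

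Sensory neuron transcription factors are the first list described here, out of 34 that were counted and that are not all described. Of 21 genes in the list, 7 were detected, and the difference was called higher for all 7, with a median of 5.00, or 4.71 with values at background raised to the floor, against -0.08 over all genes. None of the 7 was above background in all 4 groups. A gene that is detected only in the group where it is high had to differ, so this count and median describe the detected members alone, and the same holds for the other lists in so far as their genes were at background in a group. Without array A of LSB3i day 3 the count was 6, because INSM1 lost its call (adjusted p 0.058). For comparison with this and every later list, 13.6% of all 9440 genes had a higher and 13.8% a lower difference. The LSB3i change was called rising for 20.5% and falling for 23.4% of them. Of the 10038 genes tested, 10.6% rose and 12.1% fell in LSB. POU4F1 (BRN3A), a POU factor that marks sensory neurons, read 12.36, 12.03 and 12.80 on the LSB3i day 15 arrays A, B and C, and 5.42, 6.09 and 5.70 at day 3. In LSB it read 5.53, 5.15 and 4.99 at day 3 and 5.11, 4.83 and 5.30 at day 15. It was above background only on the 3 LSB3i day 15 arrays, which was a rise of at least 46.4-fold (adjusted p of the difference 4.4e-06). Here and below, "at least" sets a group at background to the lowest detected signal of each array. Its mean in LSB3i was 9.08 at day 5 and 11.56 at day 9, so it rose earlier than most of its class. ISL1, a LIM factor shared by sensory and motor neurons, rose in both arms, by at least 77.8-fold in LSB3i and at least 2.98-fold in LSB, and the difference was called (adjusted p 4.4e-04). EBF3 and ONECUT2, transcription factors of differentiating neurons, rose by at least 41.3-fold and 40.5-fold in LSB3i and were LSB3i only. In bulk RNA a change in the number of cells of a type and a change in RNA per cell cannot be told apart, here or for any group below.

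Neuropeptides and the granins packed with them into secretory granules rose in LSB3i too. Of 21 genes, 15 were detected, and the difference was called higher for 11 and lower for 1, with a median of 3.74 (2.66 with background values at the floor). SST, which encodes somatostatin, read 15.13, 15.40 and 14.64 in LSB3i day 15, against 5.02, 5.24 and 4.98 in LSB3i day 3, 5.15, 5.18 and 4.87 in LSB day 3 and 5.11, 5.34 and 7.40 in LSB day 15. Only array C of LSB day 15 detected it outside LSB3i day 15. The rise in LSB3i was at least 292-fold (adjusted p of the difference 4.9e-08), the largest lower bound in the class. TAC1, the precursor of the pain transmitter substance P, rose by at least 71.9-fold, CARTPT by at least 14.9-fold and ADCYAP1, which encodes the peptide PACAP, by at least 9.82-fold, all LSB3i only. VGF, a granin-like peptide precursor, was measurable in all 4 groups and rose by 3.86 ± 0.47 (log2 ± SE) in LSB3i, with a change of -0.38 ± 0.47 in LSB that was not called (difference 4.23 ± 0.66, adjusted p 1.9e-05). CALCB, a calcitonin gene-related peptide, had a lower difference. It rose by 1.63 ± 0.31 in LSB and read 0.17 ± 0.31 in LSB3i, which was not called (difference -1.47 ± 0.45, adjusted p 0.013). The call was lost in 4 of 24 alternative settings, among them median scaling, the authors' values and the fit without LSB3i day 15 array C (highest adjusted p 0.0682).

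The promoters of 2 of these genes are shown because they share the cyclic AMP response element, the palindrome TGACGTCA, in capitals here. They are the 250 bases before the RefSeq start in GRCh38.p14, read 5′ to 3′ on the gene's strand, at chr3:187670395-187670644 (minus strand) and chr7:101165570-101165819 (minus strand), as given by RefSeq.
SST: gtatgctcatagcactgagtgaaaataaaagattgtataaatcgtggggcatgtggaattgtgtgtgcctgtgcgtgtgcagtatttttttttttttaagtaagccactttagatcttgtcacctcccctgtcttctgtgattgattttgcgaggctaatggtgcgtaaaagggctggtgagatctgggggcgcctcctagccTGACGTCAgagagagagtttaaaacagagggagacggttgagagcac
VGF: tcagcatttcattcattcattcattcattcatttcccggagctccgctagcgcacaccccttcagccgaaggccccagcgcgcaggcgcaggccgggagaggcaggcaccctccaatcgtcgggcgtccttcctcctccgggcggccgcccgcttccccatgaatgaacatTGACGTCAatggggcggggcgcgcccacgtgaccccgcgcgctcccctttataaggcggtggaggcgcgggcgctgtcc
Searched on both strands, this motif was in 4 of the 11 promoters that the table held for the 15 detected peptide genes (36.4%), those of SST, VGF, CHGA and CARTPT. It was in 263 of the 7808 promoters of the detected genes (3.37%) and in 482 of all 27305 (1.77%). Among the rising LSB3i only genes as a whole it was in 27 of 652 (4.14%). A match says only that these letters are present.

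Genes of the neuronal cytoskeleton and growth cone rose in LSB3i. The difference was called higher for 20 of 26 detected genes, and the other 6 had no call, with a median of 2.86. INA, the neuronal intermediate filament internexin, read 8.57, 8.45 and 8.66 in LSB day 3, 8.29, 8.46 and 8.40 in LSB day 15, 8.77, 8.98 and 8.81 in LSB3i day 3 and 14.09, 14.53 and 14.26 in LSB3i day 15. The LSB3i day 15 arrays were more than 5 units above the other 9, which lay between 8.29 and 8.98. The LSB3i change was 5.44 ± 0.27 and the LSB change -0.18 ± 0.27 (difference 5.62 ± 0.38, adjusted p 1.8e-11). GAP43, a growth cone protein, rose by 4.82 ± 0.41 in LSB3i, against -0.52 ± 0.41 in LSB, which was not called. RTN1, a reticulon of neuronal endoplasmic reticulum, rose by 7.19 ± 0.38 against 0.66 ± 0.38 that was not called. STMN2, a regulator of axonal microtubules, rose by 5.66 ± 0.51 against -0.53 ± 0.51, also not called. PRPH, the filament peripherin of peripheral neurons, rose by 6.68 ± 0.35 and was above background on 1 of the 6 LSB arrays. MAPT (tau) rose by at least 59.3-fold. In LSB 4 of the 26 rose and 1 fell. DCX, which binds the microtubules of migrating neurons, rose by 5.82 ± 0.48 in LSB3i and 2.68 ± 0.48 in LSB, and TUBB3, the neuronal beta-tubulin, by 3.77 ± 0.38 and 1.56 ± 0.38. The difference was called for both, at 3.14 ± 0.68 and 2.20 ± 0.54, and the general neuronal gene MAP2 had no call in either arm.

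Synaptic genes rose in LSB3i too, with a called higher difference in 14 of 17 detected genes, a lower one in 1 and a median of 2.68. SYT4, a synaptotagmin of secretory vesicles, rose by at least 268-fold, SNAP25, a membrane fusion protein of the terminal, by at least 55.2-fold, and SLC17A6, the vesicular glutamate transporter of sensory neurons, by at least 34.9-fold. The exception was NLGN1, a postsynaptic adhesion protein, which rose by 2.09 ± 0.32 in LSB, and its change of 0.59 ± 0.32 in LSB3i was not called (difference -1.50 ± 0.45, adjusted p 0.0113, and 0.0869 with arrays scaled to a common median). Of the neuronal RNA-binding proteins, 9 of 13 had a higher difference and the other 4 no call, with a median of 2.15. ELAVL4 (HuD) rose by at least 17.7-fold and SRRM4, a splicing factor for neuronal exons, by at least 8.82-fold. PTBP2 and MSI2 had no call. Receptors and channels of nociceptors were mostly below detection, with 5 of 20 genes detected. The difference was higher for 3 of these, of which 1 was a gene that fell in LSB only. NTRK3, the receptor of neurotrophin 3, rose by at least 11.9-fold and SCN9A, the sodium channel Nav1.7 of nociceptors, by at least 1.91-fold in LSB3i, and ASIC3 and CACNA1B had no call. With values at background raised to the floor the call of SCN9A was lost (adjusted p 0.0571).

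**Figure D3:**
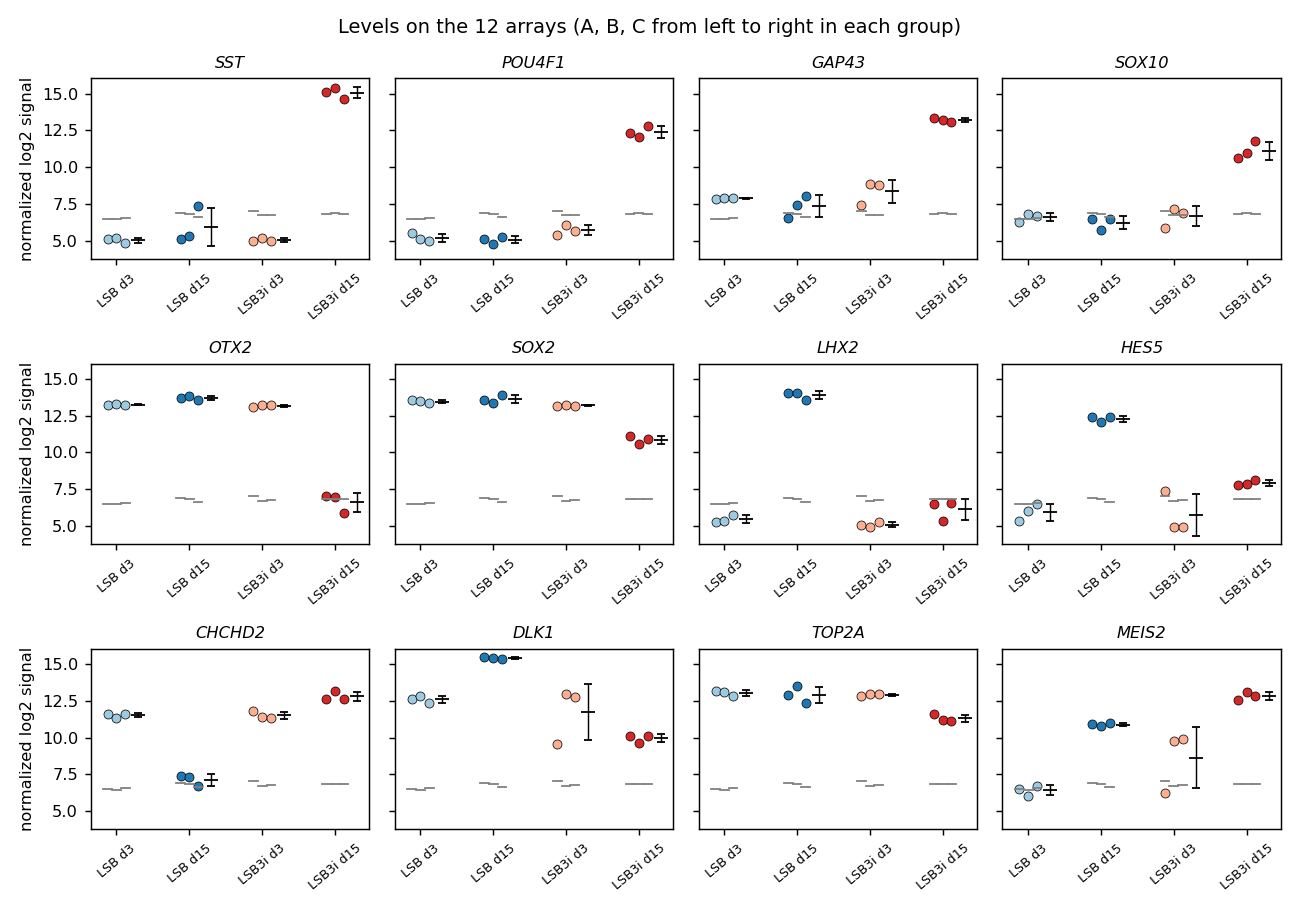
Normalized log2 signal (vertical axis) of 12 genes on each array of the 4 groups (points, arrays A, B and C from left to right), with the mean and SD beside them as black bars and the lowest detected signal of each array as short grey lines. SST and POU4F1 lie far above the grey lines only in LSB3i day 15, OTX2 falls to them only there, and array A of LSB3i day 3 stands apart from B and C for DLK1, HES5 and MEIS2.

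Neural crest genes were split. The difference was called higher for 8 of 16 detected genes and lower for 3, with a median of 2.09 (1.20 with background values at the floor). SOX10, the transcription factor of migrating crest and Schwann cells, read 10.64, 10.94 and 11.77 in LSB3i day 15 and between 5.92 and 7.20 on the LSB3i day 3 arrays, a rise of 4.44 ± 0.50. In LSB it lay between 5.74 and 6.86 on all 6 arrays. TFAP2B rose by at least 18.2-fold, ETS1, a cranial crest factor, by 4.22 ± 0.51, and ERBB3, the neuregulin receptor of Schwann cells, by 2.88 ± 0.49, all LSB3i only. The 3 genes that went the other way were SOX9, an early crest factor, CDH11 and MITF. SOX9 rose by 2.04 ± 0.42 in LSB and read -0.56 ± 0.42 in LSB3i, which was not called. CDH11, a mesenchymal cadherin, rose by 1.92 ± 0.36 in LSB3i and 4.36 ± 0.36 in LSB. The summed signal of the 16 genes was 21600 to 28063 in LSB3i day 15 and 9197 to 10098 in LSB day 15.

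Of 35 genes for ventral, hindbrain and spinal patterning 8 were detected, and the difference was higher for 3 and lower for 1, with a median of 0.32 (0.00 with background values at the floor). HOXA2 and HOXB2, expressed in the hindbrain, rose by at least 9.29-fold and 11.1-fold in LSB3i and were at background in LSB. MEIS3, a homeobox cofactor, rose by 2.06 ± 0.52 in LSB3i, and its difference of 1.99 ± 0.74 lost the call without array A (adjusted p 0.0674). IRX3, an Iroquois factor, fell by 1.98 ± 0.37 in LSB3i and read -0.13 ± 0.37 in LSB, not called (difference -1.84 ± 0.52), and HOXB6 had no call. Without array A the counts were 2 higher and 2 lower. DLX1, listed here among forebrain genes, rose by at least 17.3-fold in LSB3i alone (adjusted p of the difference 6.5e-14), and was the only member of its list of 13 detected genes with a higher difference.

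Of 29 detected collagen, laminin and integrin genes 18 rose in LSB3i and 13 in LSB. The difference was called higher for 12 and lower for 5, and higher for 7 with arrays scaled to a common median. COL1A2 rose by 3.41 ± 0.38 in LSB3i against 0.28 ± 0.38 in LSB, not called. LAMA4, a laminin chain of vessel and nerve basement membrane, rose by at least 10.8-fold and ITGA4, an integrin of migrating crest cells, by at least 5.07-fold. COL4A6 and COL9A1 instead changed by -2.26 ± 0.46 and -1.95 ± 0.42 in LSB3i and rose by 1.59 ± 0.46 and 1.23 ± 0.42 in LSB. POSTN (periostin), a matrix protein of mesenchyme, read 12.01, 12.78 and 12.67 in LSB3i day 15 and at most 5.40 on the other 9 arrays, a rise of at least 49.2-fold. Among the 14 detected markers of mesenchyme and smooth muscle the difference was higher for 3 (POSTN, ACTG2 and THY1) and lower for 3 (DCN, PDGFRA and TPM1, of whose 4 probes 2 had the other sign). Their summed signal was 57691 to 62296 in LSB3i day 15 and 38151 to 64251 in LSB day 15, ranges that overlap. Of the other non-neural lists, 3 of 17 endoderm and mesoderm markers and 1 of 15 endothelium and blood markers were detected. The part of such cells in the matrix result was not tested.

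Cholesterol synthesis genes had a called higher difference in 8 of 16 detected genes and no call in the other 8, with a median of 1.24. The LSB3i change was called rising for 9. LSS, lanosterol synthase, read 11.79, 11.89 and 11.94 in LSB3i day 15 and between 8.39 and 9.22 on the other 9 arrays. It rose by 2.97 ± 0.30 (difference 3.31 ± 0.43, adjusted p 1.4e-06). MVD, mevalonate diphosphate decarboxylase, rose by 2.35 ± 0.32 and DHCR7, the last enzyme of the pathway, by 1.99 ± 0.31. With arrays scaled to a common median 4 of the 16 had a called higher difference, and the median was 0.95.

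OTX2, a transcription factor that marks forebrain and midbrain, had the lowest difference of changes among genes measured in all 4 groups, that is above background on at least 1 array of each. It read 13.24, 13.30 and 13.20 in LSB day 3, 13.67, 13.86 and 13.58 in LSB day 15 and 13.10, 13.22 and 13.21 in LSB3i day 3, and 7.02, 6.99 and 5.90 in LSB3i day 15. The last group lay below all others by more than 5 units. The LSB3i change was -6.54 ± 0.30 and the LSB change 0.46 ± 0.30 (difference -7.00 ± 0.42, adjusted p 2.5e-12). Its LSB3i mean was still 11.88 at day 9. The progenitor factors SOX2 and SOX21 also fell in LSB3i only, with a change of -2.34 ± 0.28 against 0.16 ± 0.28 in LSB for SOX2, and of -2.93 ± 0.63 against 0.33 ± 0.63 for SOX21. Among 19 detected progenitor genes the difference was lower for 8 and higher for 3. NES, an intermediate filament of progenitors and young neurons, was among the 3 and rose by 2.07 ± 0.20 in LSB3i.

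Cell division genes fell in LSB3i. Of 30 mitosis genes, all detected, 25 fell in LSB3i and 2 in LSB, and of 28 DNA replication genes 15 fell in LSB3i and 1 in LSB. The difference was lower for 22 of the 30 and 20 of the 28, against 13.8% of all genes, and the others had no call. The medians were -1.39 and -1.35. TOP2A, topoisomerase II alpha of dividing cells, read 13.19, 13.11 and 12.82 in LSB day 3, 12.88, 13.47 and 12.34 in LSB day 15, 12.83, 12.94 and 12.94 in LSB3i day 3 and 11.57, 11.18 and 11.15 in LSB3i day 15. The LSB3i day 15 arrays lay below the other 9, and those 3 groups overlapped. CCNB1 (cyclin B1) fell by 2.71 ± 0.30 and NDC80, a kinetochore protein, fell by 2.20 ± 0.29 in LSB3i, and MCM2, part of the replicative helicase, rose in LSB (adjusted p 2.7e-04) while its LSB3i change of -0.91 ± 0.20 was not called (difference -1.91 ± 0.28). MKI67, the usual proliferation marker, was above background in neither arm at day 15 on any array and had no called difference (adjusted p 0.689). Without array A its LSB3i fall was called (adjusted p 0.0103). CDKN2D, an inhibitor of cyclin D kinases, rose by at least 7.48-fold in LSB3i, and CDKN1A and CDKN1C rose in both arms alike.

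The promoter of TOP2A is shown with the CCAAT box (CCAAT) and the cell-cycle homology region (TTTGAA) in capitals (read as ATTGG and TTCAAA where they lie on the other strand), at chr17:40417897-40418146 (minus strand, GRCh38.p14, RefSeq).
TOP2A: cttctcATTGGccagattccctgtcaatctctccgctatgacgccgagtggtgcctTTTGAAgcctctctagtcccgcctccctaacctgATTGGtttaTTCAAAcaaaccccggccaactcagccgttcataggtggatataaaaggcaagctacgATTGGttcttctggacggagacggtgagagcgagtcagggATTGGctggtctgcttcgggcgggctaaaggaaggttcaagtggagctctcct
CCAAT was in 20 of the 24 mitosis promoters in the table (83.3%), 248 of 596 of the falling LSB3i only genes (41.6%) and 2823 of 7808 of the detected genes (36.2%). TTTGAA was in 12 of 24 (50.0%), 95 of 596 (15.9%) and 686 of 7808 (8.79%). Over all 27305 promoters they were in 9021 and 3704 (13.6% for TTTGAA).

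The amino acid stress response, the set of genes induced when amino acids run short, went the same way. The difference was lower for 12 of 20 detected genes and not called for the other 8, with a median of -1.59. In some genes the arms parted through a fall in LSB3i and in others through a rise in LSB. PSAT1, an enzyme of serine synthesis, fell by 2.02 ± 0.19 in LSB3i and changed by 0.64 ± 0.19 in LSB, which was not called. SLC7A3, a cationic amino acid transporter, fell by at least 11.6-fold in LSB3i. ATF5, a transcription factor of the response, rose by 3.55 ± 0.49 in LSB and read 0.47 ± 0.49 in LSB3i, not called. CHAC1, which degrades glutathione, was above background on 2 arrays of LSB3i day 3 and on none at day 15, and it rose by 1.26 ± 0.39 in LSB (adjusted p of the difference 7.5e-04). ATF4, the regulator of the response, had no call in either arm with the probe used, at -0.17 ± 0.14 and 0.09 ± 0.14, but its 3 probes gave differences from -2.04 to -0.26 and 2 of them were called, so whether it differed is uncertain.

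Epithelial genes were lower at the end of LSB3i. The difference was lower for 8 of 9 detected epithelium and surface ectoderm genes, the exception being ESRP1, with a median of -2.60 (-1.40 with background values at the floor). CDH1 (E-cadherin) fell by at least 14.1-fold in LSB3i and fell by 1.62 ± 0.62 in LSB. KRT19, a keratin, fell by at least 10.6-fold in LSB3i, and its LSB change of 0.65 ± 0.35 was not called. The summed signal of the 9 genes was 758 to 992 in LSB3i day 15, 6527 to 9883 in LSB day 15 and 7260 to 21235 in LSB3i day 3. With values at background at the floor 5 of the 9 had a called difference.

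Pluripotency genes were called falling in both arms. The LSB3i change was called falling for 14 and the LSB change for 10 of 19 detected genes, and the difference was lower for 9 and higher for 1. PODXL, a surface sialomucin of pluripotent cells, fell by 5.55 ± 0.52 in LSB3i and fell by 2.22 ± 0.52 in LSB (difference -3.33 ± 0.74). USP44, a deubiquitinase of stem cells, fell by at least 11.9-fold in LSB3i, and the LSB value of -0.50 ± 0.34 was not called. POU5F1 (OCT4) fell by at least 2.7-fold in LSB3i, with an LSB change of -1.09 ± 0.49 that was not called. The call of its difference was lost with values at background at the floor and without LSB day 15 array B (highest adjusted p 0.363). NANOG and LEFTY2, a nodal antagonist and target, rose in LSB only. NANOG read 7.77, 7.84 and 7.73 in LSB day 15, above background only there, and rose by at least 2.4-fold. LEFTY2 read 11.74, 12.27 and 11.59 in LSB day 15 and at most 5.97 on the other 9 arrays, a rise of at least 40.7-fold in LSB (adjusted p of the difference 4.7e-14). LEFTY2 was at 5.16 in LSB at day 9, so that its rise was seen at day 15 alone.

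**Figure D4:**
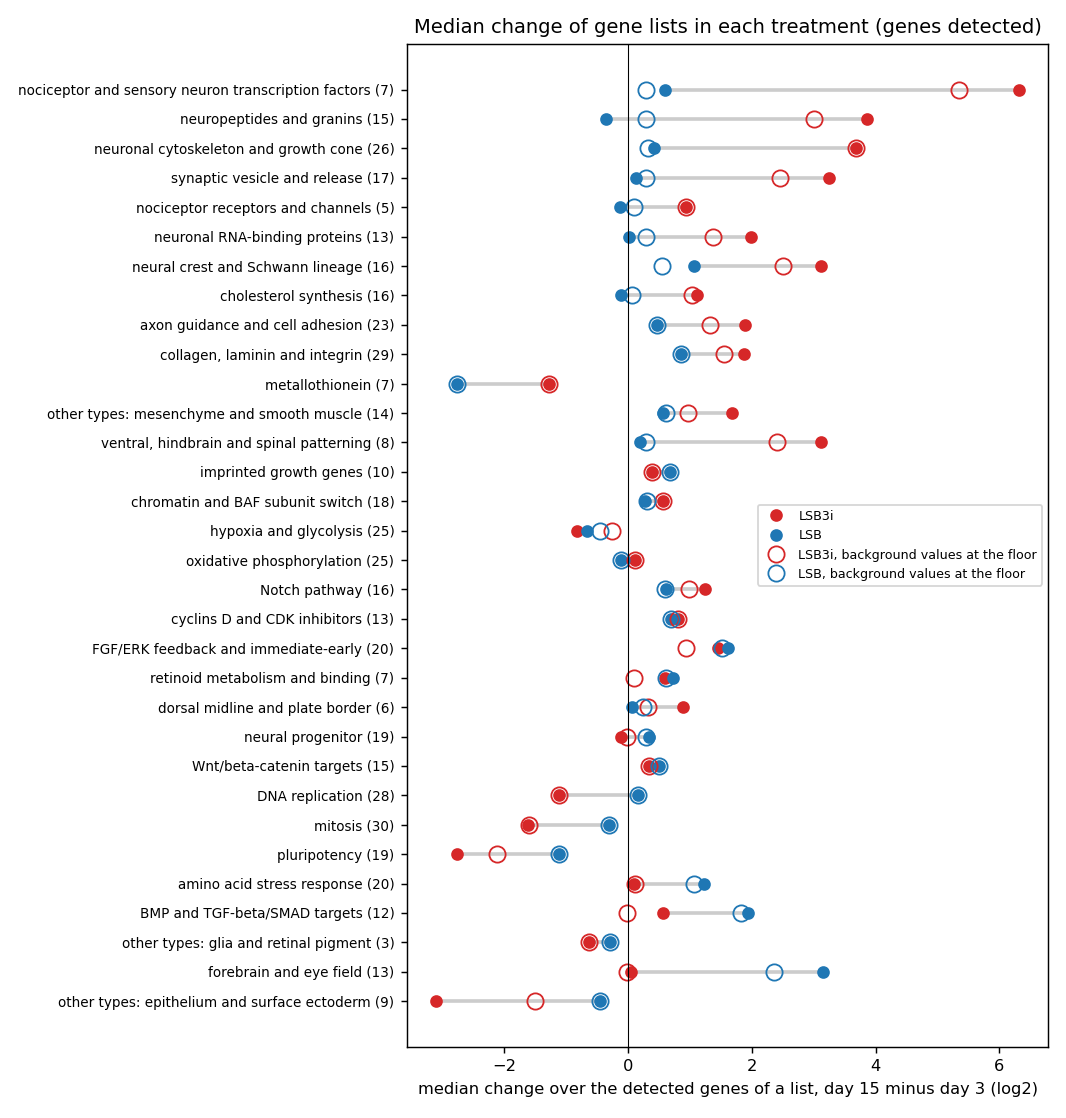
Median change from day 3 to day 15 (log2, horizontal axis) over the detected genes of each list (vertical axis, number of genes in brackets), in LSB3i (red) and LSB (blue), with hollow circles for the same medians after values at background were raised to the floor. Lists are ordered by their median difference, from sensory transcription factors at 5.00 down to epithelium at -2.60, and the lists of endoderm and endothelium markers are left out.

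Of 13 detected forebrain and eye genes 7 rose in LSB and 3 in LSB3i. The difference was lower for 8 and higher for 1, with a median of -2.22. LHX2, a LIM factor of forebrain and eye, read 14.03, 14.03 and 13.59 in LSB day 15, 5.32, 5.33 and 5.79 in LSB day 3, 5.07, 4.95 and 5.30 in LSB3i day 3 and 6.53, 5.34 and 6.55 in LSB3i day 15. It was above background only in LSB day 15 and rose there by at least 165-fold. It was at 11.55 in LSB by day 5. SIX6, an eye field factor, rose by 5.50 ± 0.38 in LSB and was at background in LSB3i at both days. PAX6, required for eye and cortex, read 7.65, 7.67 and 7.37 in LSB day 3 and 11.54, 11.54 and 12.25 in LSB day 15, a rise of 4.22 ± 0.61, and was at background on all 6 LSB3i arrays. A second probe for PAX6 had a difference of -0.68, not called. SP8 rose by 5.07 ± 0.61 in LSB and ended at background in LSB3i. HESX1, an early forebrain repressor, was an exception and fell in both arms, with changes of -4.35 ± 0.62 and -4.72 ± 0.62. NR2F1 rose and LHX5 fell in both arms, with no called difference.

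Notch pathway genes were split. The targets HES5, HES4 and HES1, the ligand DLL1 and the modifier LFNG had a lower difference, and HEYL, DNER and DLL3 a higher one, of 16 detected. DLL3 lost its call in 4 of 24 alternative settings, among them median scaling and the authors' values (highest adjusted p 0.163). The target HEY2 had a called difference without array A (2.19, adjusted p 4.2e-04). HES5, a repressor induced by Notch in neural progenitors, read 12.40, 12.07 and 12.40 in LSB day 15 and 5.33, 6.03 and 6.49 in LSB day 3, a rise of at least 54.7-fold. In LSB3i it read 7.42, 4.94 and 4.96 at day 3 and 7.81, 7.84 and 8.14 at day 15, a rise of 2.16 ± 0.44 that includes array A, the only day 3 array above background. HES1 rose by 1.92 ± 0.34 in LSB and read -0.01 ± 0.34 in LSB3i, not called. DLL1 rose by 3.06 ± 0.27 in LSB, against 0.12 ± 0.27, not called. HEYL, another repressor of the pathway, rose by 4.01 ± 0.55 in LSB3i and was at background on all 6 LSB arrays. LFNG, a glycosyltransferase that modifies Notch, fell by 2.60 ± 0.25 in LSB3i, and a second probe for it had a difference of 1.25.

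The promoter of HES5 is shown with TGGGAA, the core bound by the Notch effector RBPJ, in capitals on either strand, at chr1:2530264-2530513 (minus strand, GRCh38.p14, RefSeq).
HES5: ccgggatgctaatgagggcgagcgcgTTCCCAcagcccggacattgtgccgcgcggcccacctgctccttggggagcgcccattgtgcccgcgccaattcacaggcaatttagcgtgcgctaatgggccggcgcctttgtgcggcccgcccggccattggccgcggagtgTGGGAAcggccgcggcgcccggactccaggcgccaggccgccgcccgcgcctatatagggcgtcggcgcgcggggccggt
These letters were in 5 of the 11 Notch pathway promoters in the table (45.5%), among them HES1, HES4 and HES5 but also HEYL and HEY2, in 1524 of 7808 of the detected genes (19.5%) and in 5760 of all 27305 (21.1%).

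Targets of BMP and TGF-beta signalling rose in LSB. The LSB change was called rising for 10 of 12 detected genes and the LSB3i change for 3, and the difference was lower for 6 and not called for the other 6, with a median of -1.74. SMAD6, a feedback inhibitor of BMP signalling, rose by 1.65 ± 0.35 in LSB and read -0.17 ± 0.35 in LSB3i, not called. GREM1, a BMP antagonist, rose by at least 2.47-fold and HAND1, a heart and extraembryonic mesoderm factor, by at least 3.81-fold in LSB alone. ID1 and ID3 rose in LSB by 2.77 ± 0.59 and 1.97 ± 0.26, but their differences were not called. LEFTY2 counts in this list too.

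Other genes that rose in LSB only were not grouped by the lists. ACKR3, a scavenger receptor of the chemokine CXCL12, read 10.93, 11.45 and 10.55 in LSB day 15, 6.88, 6.58 and 6.79 in LSB day 3, 8.19, 7.42 and 7.83 in LSB3i day 3 and 6.99, 7.55 and 6.36 in LSB3i day 15. It rose by 4.23 ± 0.31 in LSB against -0.85 ± 0.31, not called. ALDH1A1, a retinaldehyde dehydrogenase of the dorsal retina, rose by at least 19.8-fold, BHMT, which remethylates homocysteine, by at least 16.2-fold, and MECOM by at least 9.88-fold. DLX5, a factor of the neural plate border and forebrain, rose by at least 13.6-fold in LSB. It read 5.27, 7.89 and 8.07 in LSB3i day 3, and without array A its LSB3i change was -1.85 and its class was opposite. EFNB1 and ODC1 became opposite without that array as well.

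The rule for named genes chose these from the 136 that fell in LSB only. NPTX1, a pentraxin of synapses, read 10.59, 11.33 and 11.20 in LSB day 3, 5.80, 7.09 and 5.28 in LSB day 15, 12.04, 9.40 and 9.25 in LSB3i day 3 and 9.69, 9.30 and 9.34 in LSB3i day 15. It fell by 4.98 ± 0.62 in LSB, where 1 of the 3 day 15 arrays was above background, so that the size is imprecise, and the LSB3i change of -0.79 ± 0.62 was not called. Its LSB3i means were 7.16, 6.82 and 6.86 at days 5, 7 and 9, so in LSB3i it dipped and returned while in LSB it stayed low. OLFM1, a secreted glycoprotein of neurons, fell by 3.85 ± 0.39 in LSB against 0.52 ± 0.39, not called, with both of its probes in the same direction. UNC5A, a netrin receptor, fell by 2.14 ± 0.44 in LSB, and without array A it rose by 1.37 in LSB3i and was opposite. The metallothionein MT2A fell by 2.93 ± 0.22 in LSB and read 0.32 ± 0.22 in LSB3i, not called. It differed already at day 3, by -1.91 ± 0.22, with 11.51, 11.64 and 11.45 in LSB and 9.68, 9.90 and 9.28 in LSB3i, and its LSB mean was 11.95 at day 7 and 8.05 at day 9.

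CHCHD2, a mitochondrial and nuclear protein linked to respiration, had the largest difference among the opposite genes measured in all 4 groups. Opposite genes at background in a group, SP8 among them, were not ranked. It read 11.62, 11.35 and 11.62 in LSB day 3, 7.43, 7.31 and 6.69 in LSB day 15, 11.80, 11.43 and 11.30 in LSB3i day 3 and 12.62, 13.14 and 12.65 in LSB3i day 15. The day 3 groups overlapped, and the day 15 groups lay on either side of them. It fell by 4.39 ± 0.19 in LSB and rose by 1.30 ± 0.19 in LSB3i (difference 5.68 ± 0.27, adjusted p 3.4e-14). Its LSB mean was 11.61 at day 7 and 11.05 at day 9, so the fall was seen at day 15 alone. Of the 25 detected oxidative phosphorylation genes, among which it was counted, the difference was higher for 3, lower for 1 and not called for 21. It is represented by 1 probe.

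The other 15 opposite genes named by the same rule were of mixed function. OLFML2A, a secreted olfactomedin protein, rose by 4.17 ± 0.38 in LSB3i and fell by 1.27 ± 0.38 in LSB. Neuronal genes among those rising in LSB3i were DCLK1, a kinase on microtubules (3.61 ± 0.45 against -1.37 ± 0.45), NTM, the adhesion protein neurotrimin (3.28 ± 0.40 against -1.53 ± 0.40), EEF1A2, the elongation factor of neurons and muscle (2.88 ± 0.52 against -1.39 ± 0.52), and KIF3C, a kinesin (2.48 ± 0.31 against -1.39 ± 0.31). PRKCB, a protein kinase C, rose by 1.25 ± 0.24 in LSB3i and fell by 2.61 ± 0.24 in LSB, and PLAC9 rose by 3.34 ± 0.49 and fell by 1.32 ± 0.49. Array A of LSB3i day 3 read 10.88 for DCLK1 against 8.11 and 7.93 on B and C, and the class held without it.

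Falling in LSB3i and rising in LSB were ACTC1, DLK1, CA2, BLACAT1, ABCC4, DSC2, COL4A6 and NUP62CL. ACTC1, cardiac actin, fell by 1.62 ± 0.55 in LSB3i and rose by 3.36 ± 0.55 in LSB. In LSB3i its mean was 13.13 at day 9 before it reached 7.33 at day 15, so its course there was not monotonic. In LSB the mean was 6.67 at day 7 and 12.07 at day 15, but LSB day 7 is the least certain point (residual SD 0.815). DLK1, an imprinted Notch-family ligand, read 9.57, 12.93 and 12.77 in LSB3i day 3, 10.13, 9.66 and 10.13 in LSB3i day 15, 12.60, 12.84 and 12.33 in LSB day 3 and 15.47, 15.38 and 15.34 in LSB day 15. It fell by 1.78 ± 0.68 in LSB3i and rose by 2.81 ± 0.68 in LSB, and array A already stood near the day 15 level. DSC2, a desmosomal cadherin, fell by 2.80 ± 0.33 and rose by 1.09 ± 0.33. ABCC4, an exporter of cyclic nucleotides, fell by 1.65 ± 0.35 and rose by 2.24 ± 0.35, CA2, a carbonic anhydrase, fell by 2.08 ± 0.49 and rose by 2.61 ± 0.49, the long noncoding RNA BLACAT1 fell by 2.14 ± 0.33 and rose by 2.02 ± 0.33, and NUP62CL fell by 1.91 ± 0.29 and rose by 1.87 ± 0.29. DKK1, a secreted Wnt antagonist that is itself induced by Wnt, fell by at least 1.35-fold in LSB3i and rose by 3.32 ± 0.59 in LSB. Of the 15 detected Wnt targets 3 had a lower and 2 a higher difference, against 13.8% and 13.6% of all genes. AXIN2, the standard readout of the pathway, rose by 1.32 ± 0.37 in LSB with no called difference (adjusted p 0.156). Without array A the difference of AXIN2 was -1.38 and was called (adjusted p 0.0455), and 5 of the 15 had a lower one.

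The size of the opposite class depends on low values. Of its 91 genes, 49 were measured in all 4 groups, and 49 genes were called opposite when values at background were raised to the floor, 47 of them shared with the 91. The 16 genes above were all measured in all 4 groups.

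Genes that moved the same way by different amounts mostly moved further in LSB3i. Of 178 that rose, 154 rose more in LSB3i, and of 131 that fell, 118 fell more in LSB3i. TAGLN3, a neuronal calponin-like protein, rose by 7.04 ± 0.63 and 2.70 ± 0.63 in LSB3i and LSB. RPRM, which arrests the cell cycle, rose by 5.12 ± 0.51 and 1.90 ± 0.51, and ENC1, an actin-binding protein of neurons, by 4.57 ± 0.43 and 1.66 ± 0.43. ASS1, an enzyme of arginine synthesis, fell, with changes of -4.88 ± 0.32 and -1.76 ± 0.32. CCL2, a chemokine, rose more in LSB, by 1.50 ± 0.55 and 4.78 ± 0.55. RUFY3 rose by 5.63 ± 0.33 and 1.06 ± 0.33 with the probe used here, but its 3 probes gave differences from -1.33 to 4.58 with calls of both signs, so its direction is uncertain.

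The alike class held genes called in the same direction in both arms. COL5A2, a fibrillar collagen chain, read 6.29, 6.69 and 6.37 and 11.21, 12.07 and 11.68 in LSB at days 3 and 15, and 5.62, 6.51 and 7.16 and 12.90, 12.55 and 13.16 in LSB3i. Both arms rose, by 5.20 ± 0.51 and 6.44 ± 0.51, and the difference of 1.24 ± 0.72 was not called (adjusted p 0.202). ANXA1, a phospholipid-binding annexin, rose by 6.62 ± 0.86 in LSB3i and 4.87 ± 0.86 in LSB, RND3, a small GTP-binding protein that relaxes the cytoskeleton, by 4.24 ± 0.33 and 3.88 ± 0.33, and COL11A1 by 4.23 ± 0.29 and 3.66 ± 0.29. ALDH1A3, a retinaldehyde dehydrogenase, rose by 3.90 ± 0.55 and 4.29 ± 0.55. MEIS2, a homeobox cofactor, rose by 4.17 ± 0.54 and 4.45 ± 0.54, and a second probe for it had a difference of 1.68. It read 6.25, 9.79 and 9.88 in LSB3i day 3, and without array A its LSB3i rise was 2.97 and it was unequal, with a difference of -1.48. Of the 23 detected genes for axon guidance and adhesion, the repellent ligand SLIT2 rose alike in both arms, by at least 11.2-fold and at least 7.05-fold, while 10 had a higher and 2 a lower difference, or 4 a lower one without array A.

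Among genes that fell alike were OLFML3, a secreted matrix protein, with changes of -4.45 ± 0.58 in LSB3i and -5.61 ± 0.58 in LSB, the antiviral protein TRIM22, with -2.87 ± 0.52 and -4.04 ± 0.52, the lysine-degrading enzyme AASS, with -3.67 ± 0.39 and -2.85 ± 0.39, and IRX2, an Iroquois homeobox factor, with -2.56 ± 0.37 and -2.64 ± 0.37. CUZD1 fell by at least 114-fold and at least 75.6-fold. Of 25 detected hypoxia and glycolysis genes 10 fell in LSB3i and 11 in LSB, 8 fell alike, and the difference was higher for 3 and lower for 2. Without array A 5 fell alike, since the LSB3i changes of HK2 (adjusted p 0.0555), BNIP3 (-0.71) and P4HA1 (-0.96) were no longer called. HK2, a hexokinase induced by low oxygen, changed by -1.84 ± 0.54 and -1.45 ± 0.54, and PGK1, phosphoglycerate kinase, by -1.56 ± 0.29 and -1.97 ± 0.29. HK1, the constitutive hexokinase of brain, was an exception and rose by 1.98 ± 0.26 in LSB3i (difference 2.28 ± 0.37). P4HA2, a collagen prolyl hydroxylase, was opposite, with 1.51 ± 0.37 in LSB3i and -1.29 ± 0.37 in LSB. Of the 7 detected metallothioneins, MT2A included, 5 fell in LSB3i and 6 in LSB, 4 of them alike, and 3 of those 4 were at background at the end of LSB3i.

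FGF feedback and immediate-early genes rose in both arms alike in 9 of 20 detected genes, and the difference was higher for 3 and lower for 5. ETV5, a transcription factor induced by FGF, rose by at least 12.3-fold in LSB3i and by 4.26 ± 0.37 in LSB (adjusted p of the difference 0.557). SPRY4, a feedback inhibitor of the pathway, rose by 3.48 ± 0.31 in LSB3i against 0.83 ± 0.31, not called, and FGF8 rose by at least 6.92-fold in LSB alone. EGR1, an immediate-early factor, fell in both arms, with changes of -3.87 ± 0.39 and -1.91 ± 0.39 (difference -1.97 ± 0.55), and FOS, which was already higher in LSB3i at day 3 by 1.94 ± 0.38, fell by at least 5.1-fold in LSB3i.

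The remaining genes gave no class. Of the 318 with only the difference called, ENO2, the neuronal enolase, read 0.42 ± 0.16 in LSB3i and -0.76 ± 0.16 in LSB, neither called (difference 1.18 ± 0.23, adjusted p 3.2e-04). MCM3, MCM6 and CDK4 were of this kind too, and the difference of MCM3 was -0.98 and not called without array A. GAPDH, a common reference gene, read 0.22 ± 0.15 and -0.02 ± 0.15 with no call. Of the 18 detected chromatin genes 5 had a higher difference and 13 no call, and 2 had a higher one with arrays scaled to a common median. ACTL6B, the neuronal subunit of the BAF remodelling complex, rose by at least 5.76-fold in LSB3i, and its progenitor counterpart ACTL6A read -0.47 ± 0.17 in LSB3i and 0.32 ± 0.17 in LSB, not called, while the difference was -0.79 with that probe and -1.24, which was called, with a second.

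Some calls rest on the choice of probe or on low signal. Among 2242 genes with more than 1 detected probe, the probe used was called in the difference for 580, and all probes shared its sign in 540 of these. Of the 1552 LSB3i only genes 975 were measured in all 4 groups, and for the others a fitted fold has no meaning and bounds are given instead. Several values with an SE rest on a group in which only some arrays were above background, and their size is imprecise. On 1 of the 3 arrays these were, in LSB day 3, ALDH1A3, CHAC1, COL5A2, ETV5, SIX6 and SP8, in LSB day 15, NPTX1, OLFML2A, P4HA2, PLAC9, POU5F1, TRIM22 and UNC5A, in LSB3i day 3, ALDH1A3, ANXA1, CALCB, COL5A2, HES5, HEYL, MEIS3, MVD, SOX9 and SPRY4, and in LSB3i day 15, AASS, ABCC4, ASS1, COL9A1, DSC2, EGR1, HESX1, HK2, NUP62CL and SOX9. On 2 of the 3 they were, in LSB day 3, MEIS2 and MEIS3, in LSB day 15, EGR1, GAP43, HK2, KIF3C, MEIS3, NTM, OLFML3 and PRKCB, in LSB3i day 3, ENC1, ERBB3, ETS1, MEIS2, OLFML2A, PRPH, RTN1, RUFY3, SMAD6, SOX10 and VGF, and in LSB3i day 15, ACKR3, ACTC1, BLACAT1, CALCB, COL4A6, OLFML3, OTX2, PODXL, SMAD6 and TRIM22.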

How the data were processed

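The 33 Illumina bead arrays form 11 groups of 3, of which the report uses 4 groups directly. Per the file headers, the deposited table holds a non-normalized intensity per probe and array and a detection p-value against negative controls. The submitters' processing notes name GenomeStudio, with no version. The authors' processed intensity values, also deposited, on a linear scale with nearly equal distributions across arrays, served as an alternative. Their probe IDs paired with the wrong rows (correlation with the intensities 0.227 to 0.29), and matching by rank paired 48780 of 48803 probes, of which 2395 had the same ID.

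Here, limma 3.58.1 in R 4.3.3 was used for normexp background correction with the detection p-values and an offset of 16, quantile normalization and log2. Probes with a detection p under 0.01 on every array of any group were kept, which left 14651 probes, 12708 of them with 1 gene symbol in the platform annotation. Each of 10038 genes was represented by its brightest probe on average. All contrasts came from a single fit of 11 group means, leaving 22 degrees of freedom, with Benjamini-Hochberg adjustment over the 10038 genes and a minimum absolute log2 value of 1. The median SE was 0.281 for a change and 0.397 for a difference. The number of arrays limits the precision. Where a gene was at background on every array of a group, a lower bound is given and no fitted fold. The main fit did not pair arrays by letter. In no pair of the groups used directly did all same-letter deviations correlate above 0.1 (highest 0.111, lowest -0.135). With so few arrays per group, that check cannot exclude pairing or an effect shared by a letter. It also left out the later LSB3i arrays lettered A, which correlated better with the preceding LSB3i day than with their own group.

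The genes described and the gene lists were chosen with earlier results of these data known. Named genes were, per class, the 8 with the largest difference (for the alike class, the largest smaller change), the 8 with the largest bound, up to 4 called genes at each end of each list, and a fixed panel. Some further list members are named and were chosen after their values were seen. Alternatives were the background correction, normalization, filters, probe choice, array weights, the letter as a block, the authors' values and each array left out. The script was tested on simulated data.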

Additional observations from a re-analysis of the deposited data

Results flagged for a closer look

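The interaction of treatment and day was past the threshold (limma, adjusted p under 0.05 and at least 2-fold) for 2590 genes, 1288 with a higher and 1302 with a lower change in LSB3i. The 16 genes below are the opposite genes measured in all 4 groups that the naming rule chose, and their changes in both arms are given above.

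The difference of changes was positive, with LSB3i rising and LSB falling, for CHCHD2 (5.68), OLFML2A (5.44), DCLK1 (4.98), NTM (4.81), PLAC9 (4.65), EEF1A2 (4.27), KIF3C (3.87) and PRKCB (3.86). It was negative, with LSB3i falling and LSB rising, for ACTC1 (-4.98), CA2 (-4.70), DLK1 (-4.59), BLACAT1 (-4.16), ABCC4 (-3.89), DSC2 (-3.89), COL4A6 (-3.85) and NUP62CL (-3.79). All are on the log2 scale with 3 arrays per group. For DLK1, array A of LSB3i day 3 read 9.57 against 12.93 and 12.77 on B and C, and without it the difference was -5.68. For DCLK1 the array read 10.88 against 8.11 and 7.93, and without it the difference was 5.94.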

How the results depend on the processing

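The difference of changes was called for 2590 genes, between 2331 and 2592 when arrays were left out and 2590 with the letter as a replicate block. With the replicate block the day 3 gap was called for 27 genes, and no count moved by over 1.5 times. Leaving out arrays gave 4012 to 4150 calls of the LSB3i change, 2002 to 2225 of the LSB change, 1450 to 1583 LSB3i only, 277 to 339 LSB only, 997 to 1097 alike and 81 to 106 opposite genes, 2775 to 2871 gaps at day 15 and 10 to 86 at day 3, or 135 when array A of LSB3i was dropped at days 3, 5, 7 and 9. The day 3 gap was called for 86 genes without LSB3i array A, and for 14, 12 and 16 without LSB arrays A, B and C and 16 and 10 without LSB3i arrays B and C. A filter on probes detected on 17 or more arrays gave 16, with 2041 differences (830 higher, 1211 lower) and 461 rising LSB3i only genes, and array weights gave 209.

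Arrays scaled to a common median gave 3486 LSB calls (475 rising, 3011 falling), 2253 alike genes (216 rising, 2037 falling) and 1772 differences (884 higher, 888 lower), of which 1766 were among the 2590. The LSB only split was 86 rising and 160 falling, and the opposite split 42 and 25. Median scaling kept 54.1% of the LSB3i only, 44.7% of the LSB only, 75.1% of the alike and 46.2% of the opposite genes. An offset of 50 without detection p-values gave 703 alike and 43 opposite genes, and values at background at the floor gave 49 opposite genes. The authors' processed values gave 2652 LSB3i and 1052 LSB calls, 177 LSB only, 490 alike and 22 opposite genes and 1660 gaps at day 15, with 1739 differences, 1706 of them among the 2590. Without a minimum change there were 3684 LSB calls, 1865 alike, 228 opposite and 4464 gaps at day 15, since more small changes then pass. Apart from that construction, the cause was not tested.

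Of 274 named genes 235 were called in the difference, and 50 of these lost the call in 1 or more of the 24 settings. In 184 the call held under every setting that kept the gene. For some of them, SST, POU4F1 and LHX2 included, that was 23 of the 24. Of the 39 not called 16 gained a call in 1 or more, among them AXIN2, ANXA1, COL5A2 and NR2F1. RUFY3 read -1.20 with median scaling, where another of its probes stood for the gene. The limits are the single cell line, 3 arrays per group, LSB3i array A at day 3 and signals near background, below which only bounds can be given.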
